A study of Mus musculus with 8 samples.

Results

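The voltage-gated calcium channel pore subunits examined here were the 8 genes Cacna1a, Cacna1b, Cacna1c, Cacna1d, Cacna1e, Cacna1g, Cacna1h and Cacna1i, of 21452 genes named on the array. Their members are the probe sets whose platform annotation gave 1 of these symbols and no other, 451 of the 303629 probe sets with a single symbol. Of these, 426 reached a mean log2 signal of 6.84 over all arrays, the median of the whole table, and were retained, and all 8 genes had the minimum of 4 retained probe sets. The retained number per gene lay between 40 for Cacna1i and 64 for Cacna1c and Cacna1e. RNA came from cortex of mouse embryos at embryonic day 18.5 and was hybridised to Affymetrix mouse exon arrays, 1 array per embryo. The design calls the arrays biological replicates. The 4 wild type and the 4 Ptbp2 knockout embryos shared a mixed CD1 and C57BL/6 background and carried no other labelled allele or treatment. No label names the knockout allele or a Cre line. The comparison asks whether the level of these genes, or the signal of single probe sets within them, differed in cortex without the splicing regulator Ptbp2.

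A voltage-gated calcium channel is built around a single large pore-forming alpha1 subunit, which holds the voltage sensors and the selectivity filter and decides the type of current. Cacna1a (P/Q-type), Cacna1b (N-type) and Cacna1e (R-type) encode the channels that couple action potentials to transmitter release. Cacna1c and Cacna1d encode the L-type channels of neuronal soma and dendrites, which signal to the nucleus, and Cacna1g, Cacna1h and Cacna1i encode the T-type channels that open near rest and support burst firing. All of these transcripts are heavily spliced. Ptbp2 is the neuronal polypyrimidine tract binding protein, mostly a repressor of alternative exons, and proteins of its family are known to act on a pair of mutually exclusive exons in Cacna1c.

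Array medians of the deposited log2 signal lay between 6.82 and 6.93. The mean log2 signal of Ptbp2 was 11.20 ± 0.14 (SD, n = 4) with the gene intact and 5.95 ± 0.34 (SD, n = 4), under the signal filter, in the knockouts, a log2 change of -5.25 (limma adjusted p = 1.7e-12), which bears out the labels. Of 7 tested glutamatergic neuron markers, which include the cortical genes Tbr1, Neurod2 and Fezf2, 4 had values above 0 and 3 below. Their mean level per array was 10.27 to 10.53 in wild type and 10.26 to 10.39 in knockout cortex. The largest difference of these was that of Slc17a7, -0.49 without overlap between groups (limma unadjusted p = 0.0019, adjusted p = 0.36). Striatal marker genes stood lower in knockout cortex in 7 of 7 tested (49% of all genes were below 0), all at an unadjusted p under 0.05 (6.49% of all genes) and 0 at an adjusted one (limma), with mean levels of 9.17 to 9.40 on the wild type arrays and 8.66 to 8.96 on the knockout arrays. Mean levels of the choroid plexus markers were 8.95 to 9.09 in wild type and 7.39 to 9.14 in knockout cortex, with knockout 2 the lowest. In bulk tissue, fewer cells of a type and less RNA per cell cannot be told apart, and the part of tissue make-up in the values that follow was not tested. In a principal component analysis of gene values, the most distant arrays were wild type 3 and knockout 3.

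None of the 8 pore genes was called in level. With limma, 0 of 8 passed an adjusted p of 0.05, where 0.116% of the 12961 genes tested did and 0.0617% did so with a lower level in knockout, and 0 of 8 had an unadjusted p under 0.05, where 6.49% of all genes did. The groups overlapped in each of the 8, while 3.65% of all genes showed no overlap. The widest interval among the 8 was that of Cacna1d, and no 95% interval reached beyond a log2 change of -0.40 or 0.23, so a fall of more than 1.32-fold or a rise of more than 1.17-fold in any of them lay outside its interval. Median log2 change over all genes tested was 0.0027. The median over a gene's retained probe sets served as its level on an array. Since probes differ in brightness, these levels are compared between arrays and not between genes.

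**Figure D1:**
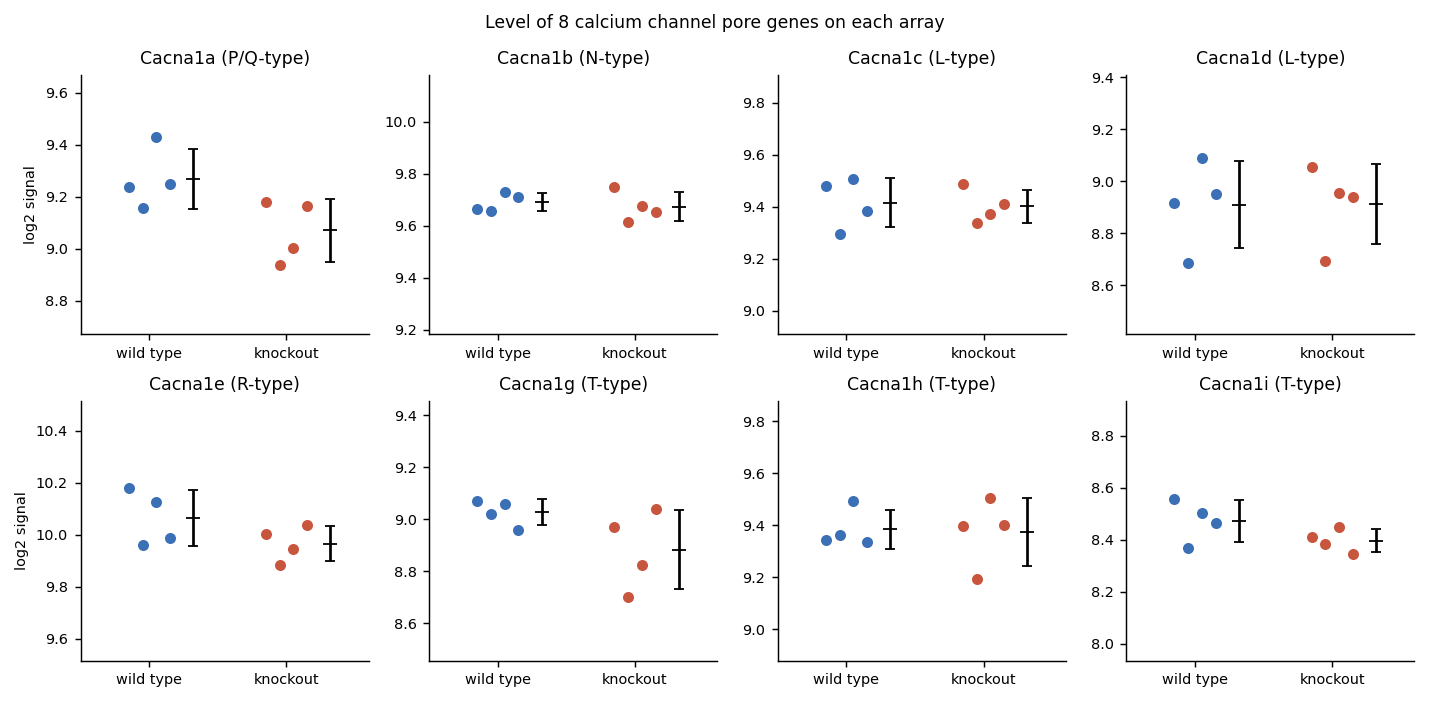
Log2 signal of each pore gene (median of its retained probe sets) on the 4 wild type and 4 knockout arrays, with the mean and SD beside each group; every panel spans 1 log2 unit. The groups overlap in all 8 genes, and Cacna1a shows the largest gap between group means, 9.27 against 9.07.

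Of the release-coupled channels, Cacna1a, the P/Q-type gene behind most fast transmission at mature central synapses, had the largest difference of the family. Its log2 signal was 9.24, 9.16, 9.43 and 9.25 on wild type arrays 1 to 4 and 9.18, 8.94, 9.00 and 9.17 on knockout arrays 1 to 4. Knockout 1 and knockout 4 lay just above the lowest wild type array, and knockout 2 and knockout 3 lay below all of them. The means were 9.27 ± 0.11 and 9.07 ± 0.12 (SD, n = 4 each), a log2 change of -0.20 (SE 0.097, 95% interval -0.40 to 0.0083) with an adjusted p = 0.77 by limma. Across its probe sets the shift was broad, with 41 of 43 below 0. So were 44 of 51 in Cacna1g and 289 of 426 over the 8 genes, against 44.4% of all retained probe sets. Probe sets of a gene are read from the same RNA and are not replicates of such a shift. At an unadjusted p under 0.05, 9 of the 43 had lower values, and 6 showed no overlap between groups, against 7.44% and 4.24% of all retained probe sets, and 0 passed the adjusted test. The Cacna1a difference was -0.12 without wild type 3 and knockout 3, and -0.13 with no signal filter.

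Cacna1b, the N-type gene, was nearly level in its gene median. Wild type arrays 1 to 4 read 9.67, 9.66, 9.73 and 9.71, and knockout arrays 1 to 4 read 9.75, 9.61, 9.68 and 9.65. The highest and the lowest of the 8 arrays were both knockouts. Its log2 change was -0.018 (SE 0.084, 95% interval -0.20 to 0.16, limma adjusted p = 0.99). Of its 62 probe sets 49 lay below 0, against 44.4% of all retained ones. With the mean of probe sets in place of the median, its log2 change was -0.071.

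Cacna1e, the R-type gene, read 10.18, 9.96, 10.13 and 9.99 in wild type and 10.00, 9.88, 9.94 and 10.04 in knockout cortex. Wild type 1 and wild type 3 stood above the other arrays, which were mixed. The log2 change was -0.098 (SE 0.091, 95% interval -0.29 to 0.095, limma adjusted p = 0.92). Of its 64 probe sets 48 lay below 0, against 44.4% of all retained ones. At an unadjusted p under 0.05 (limma) there were 2 of the 64, both lower (3.1%, against 7.44% of all retained ones).

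The group means of both L-type genes lay close together. Cacna1c read 9.48, 9.30, 9.50 and 9.38 on wild type arrays 1 to 4 and 9.49, 9.34, 9.37 and 9.41 on the knockout arrays, and the wild type values enclosed the knockout values. Its log2 change was -0.015 (SE 0.089, 95% interval -0.20 to 0.17, adjusted p = 0.99, limma). In Cacna1d the values were 8.92, 8.69, 9.09 and 8.95 in wild type and 9.05, 8.69, 8.95 and 8.94 in knockout cortex. Here wild type 2 and knockout 2 were both low by about the same amount, and the group means were 8.91 ± 0.17 and 8.91 ± 0.15 (SD, n = 4 each), with a log2 change of 0.00035 (SE 0.11, 95% interval -0.23 to 0.23, adjusted p = 1.0, limma). The signs of the Cacna1c and Cacna1d differences turned under several alternatives, as did those of Cacna1h and, with 1 array left out, Cacna1b, and none of these is read as a direction.

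Among the T-type genes, Cacna1g, prominent in thalamic relay and many cortical neurons, had the second largest difference of the family. The wild type arrays lay close together at 9.07, 9.02, 9.06 and 8.96, while the knockout arrays spread over 8.97, 8.70, 8.82 and 9.04. Knockout 2 and knockout 3 were lower than any wild type array and knockout 1 and knockout 4 were within the wild type range. The log2 change was -0.14 (SE 0.096, 95% interval -0.35 to 0.059, limma adjusted p = 0.87), and it was -0.083 without knockout 2 and -0.068 under array weights. Cacna1h read 9.34, 9.36, 9.49 and 9.34 in wild type and 9.40, 9.19, 9.50 and 9.40 in knockout cortex, so that the knockout arrays held both the highest and the lowest value (log2 change -0.010, SE 0.094, 95% interval -0.21 to 0.19, limma adjusted p = 0.995). Cacna1i read 8.56, 8.37, 8.50 and 8.46 in wild type and 8.41, 8.39, 8.45 and 8.34 in knockout cortex. All 4 knockout values of Cacna1i were under those of wild type 1, wild type 3 and wild type 4, and wild type 2 lay among them. Its log2 change was -0.075 (SE 0.087, 95% interval -0.26 to 0.11, limma adjusted p = 0.95).

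**Figure D2:**
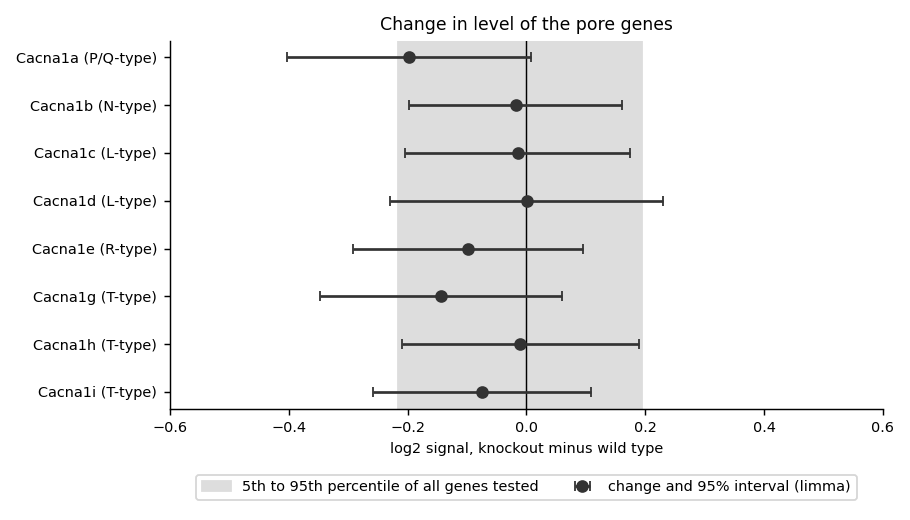
Difference in log2 signal, knockout minus wild type, of each pore gene (point) with its 95% interval from limma (bar); the grey band spans the 5th to 95th percentile of all 12961 genes tested. All 8 intervals include 0 and all 8 points lie inside the band of -0.22 to 0.19.

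The genes shared some of their spread over single arrays. Knockout 2 gave the lowest value for 5 of the 8 genes, Cacna1a, Cacna1b, Cacna1e, Cacna1g and Cacna1h, and lay below the gene's own mean in all 8, by 0.15 on average. Wild type 3 lay above the gene's own mean in all 8, by 0.12 on average, and gave the highest value for Cacna1a, Cacna1c and Cacna1d. Knockout 2 was also the array with the low choroid plexus markers, whose part in these values was not tested. Without knockout 2, the log2 change of Cacna1a was -0.15 and that of Cacna1h 0.050.

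As a description over the 8 arrays, the tested genes whose values ran most like those of a pore gene were listed by Pearson's r, which can be high for some of 12961 genes when only 8 arrays are compared. For Cacna1a these were Prkd1, a protein kinase D (r = 0.99), and Me2, a mitochondrial malic enzyme (r = 0.97). For Cacna1g they were Atp6v0a1, a subunit of the vacuolar proton pump (0.96), and the kinesin gene Kifc2 (0.96), and for Cacna1c Setd7, a lysine methyltransferase (0.98), and the guanylate cyclase gene Gucy1a2 (0.97). Npas4, an activity-dependent transcription factor gene, was the most alike to Cacna1b (0.95), followed by Wscd1 (0.94). The pairs for the other genes were Lrrc9 and Begain for Cacna1d (both 0.97), Tdrd3 (0.97) and Pdgfra (0.96) for Cacna1e, Pgbd1 (0.96) and Slc25a37 (0.95) for Cacna1h, and Pappa2 and Syde2 for Cacna1i (both 0.97).

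Single probe sets were compared next, since a splicing difference can alter 1 stretch of a transcript and leave the gene's level as it was. The difference of a probe set from the median of its gene on the same array, the splicing index, was tested with limma on 195604 probe sets. Of the 426 pore gene probe sets 0 passed by this measure, where 0.00869% of all tested did, and 21 had an unadjusted p under 0.05 (4.93%, against 5.27% of all tested). Relative to their gene, 394 of 426 changed by less than 0.25 log2 (92.5%, against 88.9% of all tested). As the genes themselves differed by at most 0.20 in either direction, this count does not show that probe sets moved with their gene. In the probe set levels themselves 0 of 426 passed the limma test, where 0.0921% of all retained probe sets did, and 27 had an unadjusted p under 0.05 (6.34%, against 7.44%).

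A second model, limma diffSplice, sets a probe set against the other probe sets of its gene with 1 shared variance per gene. It called 3 of the 426 (0.704%, against 0.212% of all tested), namely 5236993 and 5176477 of Cacna1g and 5576064 of Cacna1b. At an unadjusted p under 0.05 it gave 21 of 426 (against 4.57% of all tested). The shared variance assumes that the probe sets of a gene vary alike, which the splicing index does not, and the calls rest on that assumption. Pooling also treats probe sets read from the same RNA as independent. By the Simes test of diffSplice, Cacna1g passed as a gene (adjusted p = 7.4e-06, where 2.46% of genes passed), Cacna1b missed the threshold (adjusted p = 0.060), and the other 6 had adjusted p of 0.71 or more. By a Simes p over the splicing index, Cacna1g had an adjusted p = 0.86.

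**Figure D3:**
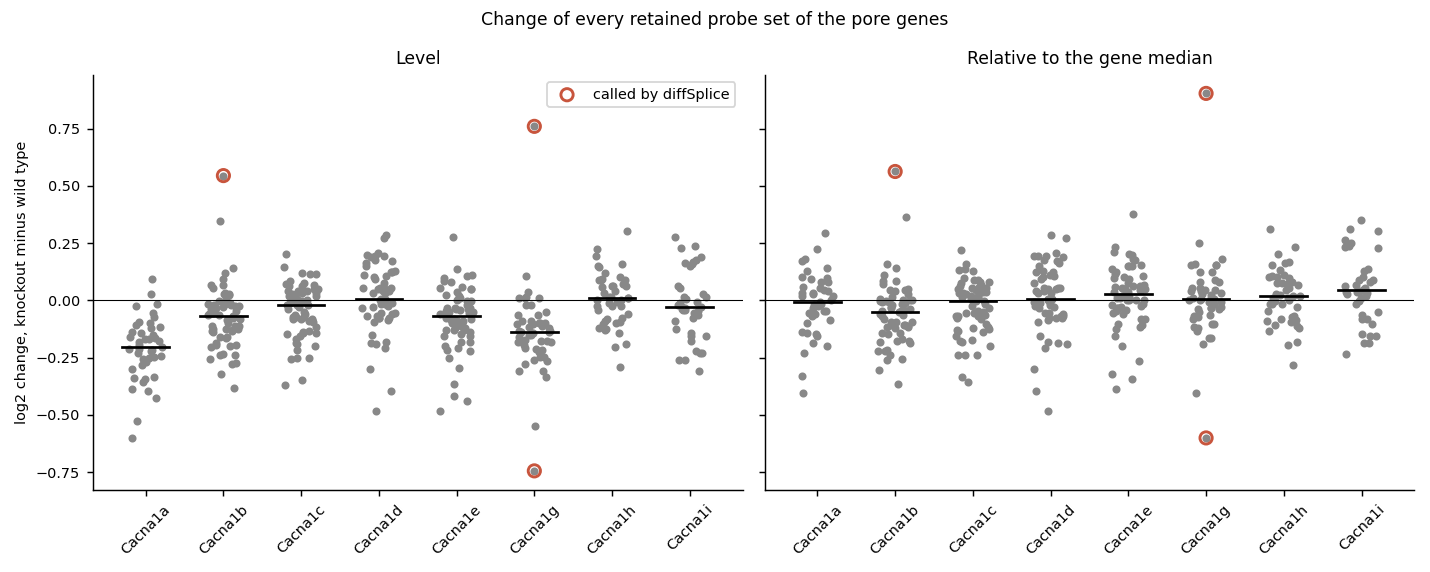
Log2 change, knockout minus wild type, of each of the 426 retained probe sets of the 8 pore genes, in level (left) and relative to the gene median (right); black lines are medians over the probe sets of a gene. Red rings mark the 3 probe sets called by diffSplice, of which those of Cacna1g lie at 0.90 and -0.60 relative to the gene.

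Cacna1g held a probe set that stood higher and another that stood lower in knockout cortex, both without overlap between groups. Probe set 5236993 read 6.89, 7.60, 7.04 and 7.20 on wild type arrays 1 to 4 and 8.20, 7.65, 7.82 and 8.11 on knockout arrays 1 to 4. All 4 knockout values were higher, by the narrowest margin between knockout 2 and wild type 2, and wild type 1 lay close to the signal filter. Its level differed by a log2 of 0.76 (SE 0.17, limma adjusted p = 0.26). Relative to the gene median it stood at -1.85 ± 0.33 in wild type and -0.94 ± 0.12 in the knockouts (SD, n = 4 each), a change of 0.90 (SE 0.16, 95% interval 0.55 to 1.26) with an adjusted p = 0.48 in the splicing index and an adjusted p = 2.0e-06 in diffSplice. It passed diffSplice whichever single array was left out.

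Probe set 5176477 went the other way. It read 8.80, 8.78, 8.81 and 8.48 in wild type and 7.86, 8.18, 7.78 and 8.08 in knockout cortex, with wild type 4 apart from the other wild type arrays and still above every knockout. The level differed by a log2 of -0.74 (SE 0.13), the smallest p of any pore gene probe set in level (limma adjusted p = 0.090). Relative to the gene median it was at -0.31 ± 0.11 in wild type and -0.91 ± 0.26 in the knockouts (SD, n = 4 each), a change of -0.60 (SE 0.13, 95% interval -0.90 to -0.30, splicing index adjusted p = 0.80, diffSplice adjusted p = 0.014). The diffSplice call was lost when wild type 1 (adjusted p = 0.12), wild type 3 (0.051), knockout 1 (0.19) or knockout 3 (0.18) was left out, and when both number 3 arrays were (0.30).

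The signal of 5236993 minus that of 5176477 on the same array, given as a description since both were picked for their values, was -1.92, -1.18, -1.77 and -1.28 in wild type and 0.34, -0.53, 0.037 and 0.023 in knockout cortex. The group means were -1.54 ± 0.36 and -0.033 ± 0.36 (SD, n = 4 each), a difference of 1.51. Every knockout array lay above every wild type array in this measure. Of the other 49 retained Cacna1g probe sets none passed either model. The annotation used here gives no positions, so whether these probe sets lie in known alternative exons of Cacna1g was not examined.

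In Cacna1b, probe set 5576064 read 8.24, 8.12, 8.72 and 7.97 in wild type and 8.90, 8.66, 8.65 and 9.02 in knockout cortex. Wild type 3 lay within the knockout values, so the groups overlapped, and the other 3 wild type arrays lay below every knockout. Relative to the gene median it stood at -1.43 ± 0.31 in wild type and at -0.86 ± 0.17 in the knockouts (SD, n = 4 each), a difference of 0.56 (SE 0.16, 95% interval 0.21 to 0.92, splicing index adjusted p = 0.92, diffSplice adjusted p = 0.019). The diffSplice call ended without wild type 1 (adjusted p = 0.10), wild type 4 (0.27), knockout 1 (0.11), knockout 3 (0.052) or knockout 4 (0.10). In Cacna1b the probe set farthest in the other direction, 5451426, differed by -0.36 relative to the gene (splicing index adjusted p = 0.92). On that scale only 4720845 showed no overlap, at -0.21, 1 of 62 (1.61%, against 2.92% of all tested).

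**Figure D4:**
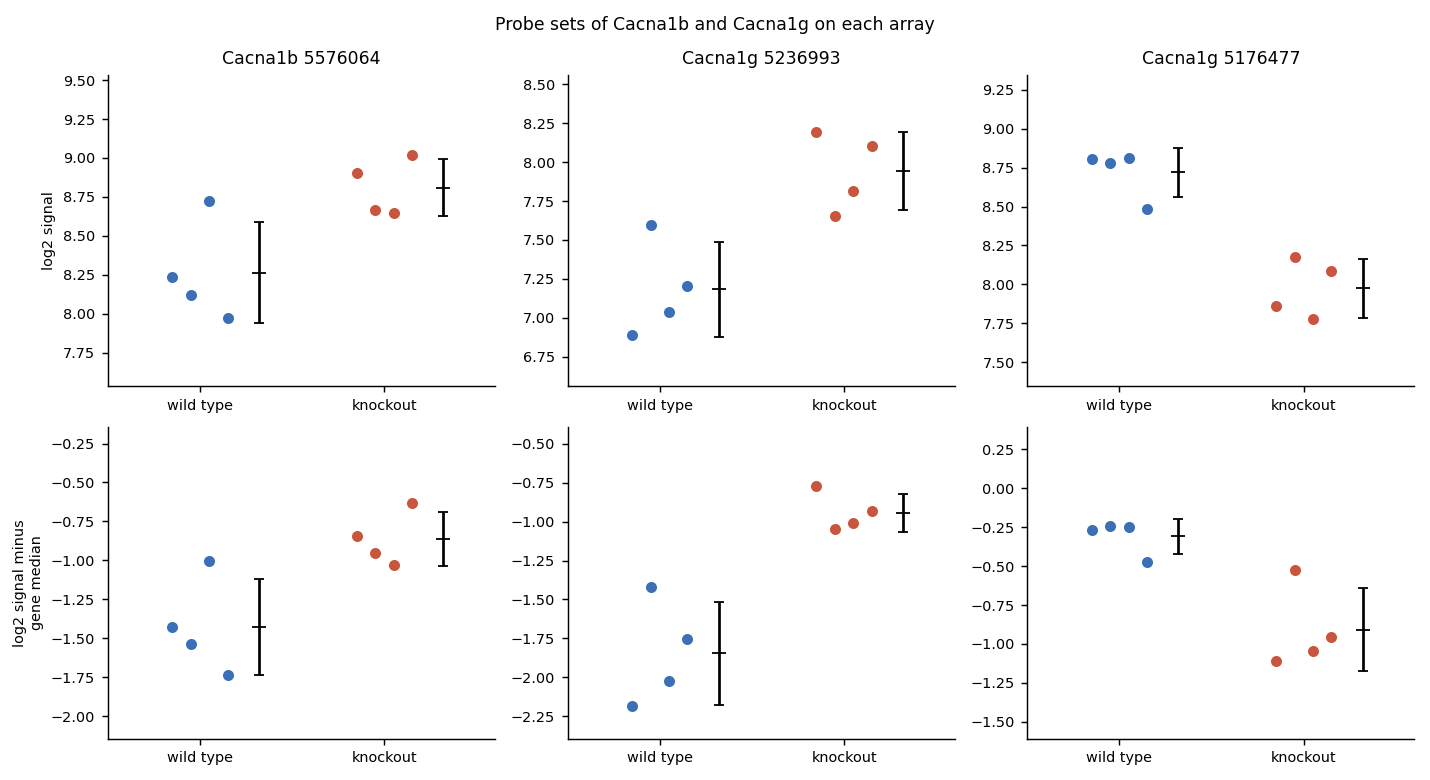
Log2 signal (top) and log2 signal minus the gene median (bottom) of Cacna1b probe set 5576064 and Cacna1g probe sets 5236993 and 5176477 on each array, with group mean and SD; every panel spans 2 log2 units. The groups are separate in both rows for the Cacna1g probe sets and overlap in both rows for the Cacna1b probe set, where wild type 3 lies among the knockouts.

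The remaining genes held probe sets with smaller deviations, none called by either model. Over all 8 genes, 13 of 426 probe sets showed no overlap relative to the gene (3.05%, against 2.92% of all tested). In Cacna1a, 4685751 read 8.73, 8.44, 8.88 and 8.50 in wild type and 8.17, 7.93, 7.74 and 8.28 in knockout cortex, without overlap, and differed by -0.60 in level and by -0.41 relative to the gene (splicing index adjusted p = 0.90). That made it the lowest of its gene on both scales. The Cacna1a probe set farthest up, 4628052, stood 0.29 higher relative to the gene, with wild type values between -0.84 and -0.78 and knockout values between -0.77 and -0.13. Cacna1a 4822618 also showed no overlap relative to the gene, at -0.14, which made 3 of 43 in this gene (6.98%). In Cacna1d, 4483737 was level with its gene in wild type cortex (0.010 ± 0.088) and below it in every knockout (-0.47 ± 0.19, SD, n = 4 each), a difference of -0.48 (splicing index adjusted p = 0.80, diffSplice adjusted p = 0.34). Cacna1d 5391833 also showed no overlap relative to its gene, at -0.40, which made 2 of 57 (3.51%). The largest value in the other direction was that of 5088280, 0.29.

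In Cacna1c, the gene with the known exon pair, deviations of the retained probe sets were small. Without positions, whether any of them lies in that exon pair was not examined. Its lowest probe set relative to the gene, 4766339, was at -0.36 (splicing index adjusted p = 0.92), and its highest, 4963395, was at 0.22. Only 5160208 showed no overlap relative to the gene, at 1.17 ± 0.16 in wild type and 0.93 ± 0.069 in the knockouts (SD, n = 4 each). Of the 64 probe sets 62 stayed within 0.25 log2 of the gene, and 1 of 64 without overlap (1.56%) compares with 2.92% of all probe sets tested. In Cacna1e the lowest and highest were 5075415 (-0.39) and 5402850 (0.38). Without overlap were 4976912 (0.20) and 5244521 (0.21), 2 of 64 (3.1%, against the same 2.92%). Cacna1h ranged from 5093012 (-0.28) to 4811735 (0.31, no overlap). Cacna1i ranged from 5254443 (-0.23) to 5386695 (0.35), whose wild type values relative to the gene lay between 0.13 and 0.17 and whose knockout values lay between 0.38 and 0.79 (splicing index adjusted p = 0.92).

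The 25 pore gene probe sets below the signal filter had means between 3.85 and 6.82 and entered no test with the others. Their log2 differences ran from -0.89 to 0.45, 2 of 25 had an unadjusted p under 0.05 in a limma fit without the filter, and 0 of 25 showed separate groups. Of all probe sets below the filter, 8.15% had such a p in the same fit and 3.41% showed separate groups. In Cacna1a 7 of 50 probe sets were in this class, in Cacna1c 5 of 69 and in Cacna1b 0 of 62. The difference of -0.89 was that of Cacna1c 5217099 (limma without the filter, unadjusted p = 0.016, adjusted p = 0.67).

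The pore subunits work in complexes with beta subunits, which carry them to the membrane and set their gating, with alpha2delta subunits, which raise their surface number, and with gamma subunits, several of which serve AMPA receptors instead. Of the beta genes 0 of 4 passed, and all had values below 0, among them Cacnb2 (-0.11), Cacnb1 (-0.085) and Cacnb4 (-0.079), where 49% of all genes tested were below 0. Cacna2d3, the alpha2delta gene with the largest difference, averaged 9.61 ± 0.15 over the wild type and 9.23 ± 0.17 over the knockout arrays (SD, n = 4 each), without overlap, a log2 change of -0.38 (SE 0.11, limma adjusted p = 0.42). Cacna2d2 had a log2 change of -0.22 (adjusted p = 0.85) and Cacna2d4 of -0.20 (adjusted p = 0.75), so that 3 of 3 tested alpha2delta genes were below 0, 2 of them at an unadjusted p under 0.05 (6.49% of all genes), and none passed. Cacna2d4 was measured on 13 of 45 probe sets that reached the filter. Cacna2d1, with 1 probe set, was not tested. Of the gamma genes 0 of 4 tested passed, with Cacng5 at -0.12, Cacng4 at -0.083 and Cacng1 at 0.055. The pore genes of muscle and retina, Cacna1s and Cacna1f, had log2 changes of 0.032 and 0.0067, measured on 16 of 49 and 11 of 59 probe sets that reached the filter.

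**Figure D5:**
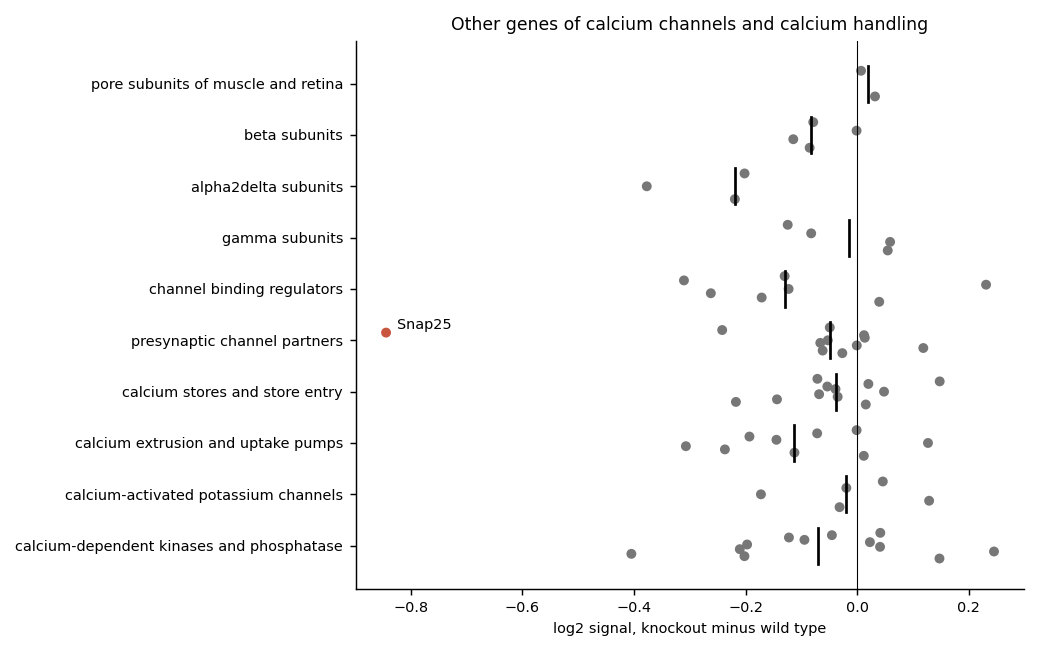
Log2 change, knockout minus wild type, of each tested gene of the channel and calcium handling lists (points), with the list medians (black lines) and the gene past the adjusted threshold in red. Snap25 at -0.84 is the single gene past it, and the medians of the lists lie between -0.22 and 0.019.

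Over 10 lists of other calcium channel and calcium handling genes, 1 of 68 tested passed (0.116% of all genes did), with 22 above 0 and 46 below (49% of all genes were below). Their median was -0.058, against 0.0027 over all genes, and 10 of 68 had an unadjusted p under 0.05, against 6.49% of all genes. Because the lists were chosen with earlier results of these data known, these counts are a description and no test of the pathway. The one that passed was Snap25, a SNARE protein that binds N-type and P/Q-type channels at release sites, which fell from 10.90 ± 0.20 to 10.06 ± 0.16 (SD, n = 4 each), a log2 change of -0.84 (SE 0.11, limma adjusted p = 0.0048). It passed in each of the 20 alternatives run. Syt1, the calcium sensor of release, had a log2 change of -0.24 (limma adjusted p = 0.75). Rimbp2, which links channels to the release site, was at 0.12 (adjusted p = 0.91).

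Of regulators that bind the channels, Akap5, the anchoring protein that ties kinases and calcineurin to L-type channels, had a log2 change of -0.31, Stac2 of -0.26 and Gem, a small GTPase that restrains channel currents, of 0.23. The adjusted p of these 3 lay between 0.61 and 0.77 with limma, and 0 of 7 tested genes of this list passed. The list also holds Nalcn, a sodium leak channel gene. Among the calcium-dependent enzymes Camk2a had a log2 change of -0.40 (limma adjusted p = 0.23) and Camk2b of 0.24 (adjusted p = 0.72), with 0 of 12 passing. Camk1d followed at -0.20 (limma adjusted p = 0.86). Store release and store entry genes passed in 0 of 11, led by the ryanodine receptors Ryr2 (-0.22) and Ryr3 (-0.14) and by Orai2 (0.15). Pumps and exchangers passed in 0 of 9, with the plasma membrane pumps Atp2b3 (-0.24) and Atp2b4 (-0.31) and the exchanger Slc8a3 (-0.19) in front, and calcium-activated potassium channels passed in 0 of 5, led by Kcnn1 (-0.17), Kcnmb4 (0.13) and Kcnn3 (0.046). Of the 79 genes listed 11 were not tested, 4 with no probe set of a single symbol and 7 with fewer than 4 retained.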

How the data were processed

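Per the labels, RNA was extracted with Trizol and labelled with the Affymetrix WT sense target assay. The authors deposited log2 signals per probe set. The submitters' processing notes name Affymetrix Expression Console, RMA and mm9, but no versions or roles. RMA equalises arrays, so differences in total RNA are lost and low signals are compressed. No depth exists for arrays. No 2 arrays were identical.

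Names came from the platform annotation: 303629 of 625534 probe sets had 1 symbol, 5892 several and 316013 none. Of 21634 symbols 17657 were current in RefSeq (GRCm38.p6, used for names only) and 3919 were updated. The 4 probe sets under an older symbol of Cacna1c were not members. Ptbp2 was left out of usage tests.

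A gene's value was the median of its probe sets with a mean of at least 6.84. Levels and the splicing index were fitted with lmFit and eBayes (limma 3.58.1, R 4.3.3), with no covariate and Benjamini-Hochberg adjustment over the whole table at 0.05; diffSplice was the alternative usage model. P-values of levels and of the splicing index measure the spread between these embryos. Those of diffSplice rest on a spread pooled over the probe sets of a gene, which are read from the same embryos. The fits were tested on simulated arrays. There diffSplice found more of the planted probe set shifts than the splicing index, but made many more false calls. The splicing index missed most shifts of the larger and the smaller size planted, and diffSplice missed most of the smaller ones. Per gene, the text names probe sets that passed a test, the extremes in level and splicing index, and up to 4 without overlap in the splicing index; per list, genes that passed and the 3 with the smallest p. Members and lists were chosen with earlier results of these data known. Alternatives were each array left out, wild type 3 with knockout 3 left out, a replicate block, cyclic loess or quantile normalization, a filter at the 75th percentile or none, trend and robust eBayes, array weights, Xist as a covariate, the mean, and a minimum of 1 probe set.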

Additional observations from a re-analysis of the deposited data

Results flagged for a closer look

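In 4 of 62 groups of 4 arrays 1 array stood apart from the others by Dixon's ratio, where chance marks about 1 in 20 independent groups. Many of these groups belong to probe sets named for their values, and all share the same arrays. That rate is therefore no test of the count. Wild type 3 was at 9.49 in Cacna1h, with the next wild type array at 9.36. In Cacna1g probe set 5176477, wild type 4 was at 8.48 and the next at 8.78, still above all knockout arrays. Wild type 4 was at 6.56 in Cacna1d probe set 5088280, with the next at 7.43. Knockout 3 was at 9.24 in Cacna1i probe set 5386695, with the next at 8.79.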

How the results depend on the processing

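The count of pore genes called in level (0), of their probe sets called in level (0) and of calcium pathway genes called in level (1) was the same in every alternative run, as were the direction and call of Ptbp2. The splicing index called 0 pore gene probe sets in each alternative it was run under, and diffSplice in its place called 3. The diffSplice count was 4 with no filter, 2 without wild type 3 and knockout 3, and 0 with a signal filter of 8.55, the 75th percentile, since all 3 probe sets lie below it, and ranged from 1 to 3 with 1 array left out; it was 1 without wild type 1, knockout 1 or knockout 3, and in each of these 5236993 was the one left. Deviations of same-numbered arrays correlated at -0.0040 to 0.25. The number 1 arrays (0.25) and the number 4 arrays (0.17) correlated best with each other, whereas wild type 2 correlated best with knockout 3 (0.19). As the match did not hold for every number, the numbers were not taken as pairs. Under the replicate block the diffSplice count was 3, both other counts of pore gene calls were 0, and 22 of all genes were called in place of 15. Over the alternatives that whole-table count ran from 5 (minimum of 1 probe set) to 71 (array weights). Uncalled gene differences near 0 changed sign. Cacna1c was at 0.019 with no filter, 0.025 with array weights and 0.025 without wild type 3 and knockout 3; Cacna1d at -0.016 with no filter, -0.018 with quantile and -0.021 with cyclic loess normalization; Cacna1h at 0.026 with no filter, 0.025 with array weights and 0.0055 with the mean; the cause was not tested. With 1 array left out they ranged from -0.055 to 0.015 in Cacna1c, -0.074 to 0.073 in Cacna1d, -0.054 to 0.050 in Cacna1h and -0.043 to 0.0011 in Cacna1b. Cacna1a had an unadjusted p under 0.05 in 5 of 20 alternatives (limma adjusted p = 0.52 to 0.999 over all), with values from -0.23 to -0.12. Merging the older symbol into Cacna1c, and the alternatives to the diffSplice count, were added after the data were seen. DiffSplice was not run with trend, array weights, the mean or a minimum of 1 probe set.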
